A study of Mus musculus with 8 samples.

Results

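The S100 proteins, annexins and galectins were read here through 9 genes: S100a4, S100a6, S100a10, S100a11, S100a13, Anxa1, Anxa2, Lgals1 and Lgals3. They were picked by name from the 24108 named genes of the count table, with earlier results of these data known, and all 9 passed the expression filter that kept 13989 genes. Because the choice rested on measured values, the levels and differences of these 9 genes are a description and carry no p-value.

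RNA was sequenced from CD4 T cells sorted from mesenteric lymph node, the node that drains the intestine. The mice carried the Foxp3 DTR-GFP and Foxp3 Thy1.1 reporter alleles (Foxp3 is the gene that defines regulatory T cells, Treg cells), CD4 CreER over wild type, a Cre switched on by tamoxifen, and R26 lsl-tdTomato over wild type, which turns red once Cre has acted. All mice were bred and weaned on AVNM (not spelled out in the labels) with an amino acid-defined diet, received tamoxifen and diphtheria toxin over a labelling period of about 3 weeks, and were then moved to chow with an SPF fecal microbiota for 12 days before the sort. The diphtheria toxin receptor is named with the GFP allele alone, and the design text places the tdTomato mark on extrathymic CD4 T cells that lacked Foxp3 at labelling. The 4 populations, of 2 libraries each, were tdTomato-positive GFP cells, tdTomato-negative GFP cells, tdTomato-positive Thy1.1 cells and tdTomato-negative Thy1.1 cells, and every population carried the same alleles and had the same treatments. Neither the age of the mice nor the animals behind each library are stated, so the spread between 2 libraries may be technical.

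S100 proteins are small calcium-binding proteins that pair up and dock onto other proteins, among them annexins and myosin. Annexins bind membrane phospholipid when calcium is high and shape vesicle traffic, membrane repair and the cortical cytoskeleton. Galectins are lectins that bind beta-galactoside sugars on surface glycoproteins, from outside the cell after an unconventional export, and also act inside it. In T cells, several of these genes are known as part of the programme that separates antigen-experienced and effector cells, effector Treg cells included, from resting ones.

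The promoters of 7 of the 9 genes were in the RefSeq table for GRCm38.p6, each as 250 bases before and 50 bases after the start of the gene. Those of 5 genes are printed: S100a4 and Lgals3, which had the widest ranges of level, S100a11 and Anxa2, which hold AP-1 letters, and Anxa1, whose pattern departed from the rest. Capitals mark an AP-1 site (TGANTCA), a GC box (GGGCGG) or a TATA box (TATAAA), searched on both strands.
S100a4, chr3:90603520-90603819, plus strand: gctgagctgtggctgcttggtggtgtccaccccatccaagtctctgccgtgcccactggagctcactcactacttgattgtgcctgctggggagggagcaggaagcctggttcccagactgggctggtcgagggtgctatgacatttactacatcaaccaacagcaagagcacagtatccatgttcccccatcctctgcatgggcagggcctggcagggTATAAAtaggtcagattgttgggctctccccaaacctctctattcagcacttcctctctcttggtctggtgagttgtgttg
S100a11, chr3:93520246-93520545, plus strand: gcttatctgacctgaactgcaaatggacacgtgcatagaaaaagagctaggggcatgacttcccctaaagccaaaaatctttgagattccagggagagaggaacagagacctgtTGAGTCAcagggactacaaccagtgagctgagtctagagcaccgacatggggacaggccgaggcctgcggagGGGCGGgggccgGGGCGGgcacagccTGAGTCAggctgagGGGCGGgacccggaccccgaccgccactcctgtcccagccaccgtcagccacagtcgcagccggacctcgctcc
Anxa1, chr19:20390622-20390921, minus strand: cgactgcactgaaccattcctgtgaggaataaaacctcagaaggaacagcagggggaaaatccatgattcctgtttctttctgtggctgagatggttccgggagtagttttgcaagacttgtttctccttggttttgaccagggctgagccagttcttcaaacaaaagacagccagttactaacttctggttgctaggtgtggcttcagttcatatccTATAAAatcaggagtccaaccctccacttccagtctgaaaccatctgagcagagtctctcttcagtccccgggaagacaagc
Anxa2, chr9:69453433-69453732, plus strand: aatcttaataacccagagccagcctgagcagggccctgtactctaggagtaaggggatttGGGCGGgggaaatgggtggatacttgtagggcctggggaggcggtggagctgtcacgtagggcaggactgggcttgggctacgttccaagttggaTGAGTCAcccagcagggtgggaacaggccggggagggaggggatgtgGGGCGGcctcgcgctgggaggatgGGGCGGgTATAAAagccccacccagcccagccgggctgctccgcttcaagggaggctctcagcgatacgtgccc
Lgals3, chr14:47373610-47373909, plus strand: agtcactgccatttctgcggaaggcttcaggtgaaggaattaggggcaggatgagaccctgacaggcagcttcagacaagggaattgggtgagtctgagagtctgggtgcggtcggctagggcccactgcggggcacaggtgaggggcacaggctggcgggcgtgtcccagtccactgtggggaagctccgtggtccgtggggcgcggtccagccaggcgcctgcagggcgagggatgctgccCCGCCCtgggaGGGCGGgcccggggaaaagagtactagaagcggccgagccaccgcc

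The AP-1 letters stood at positions -136 and -38 of the S100a11 promoter and at position -95 of the Anxa2 promoter, counted from the start of the gene. They occurred in 7.81% of 32851 mouse promoters of the same length. The Anxa2 promoter also held GC boxes at -190, -48 and -24 and a TATA box at -17. S100a4 and Anxa1 had a TATA box at -31 and -32, a motif held by 13.6% of promoters. GC boxes, in 35.7% of promoters, stood at -64, -52 and -24 in S100a11 and at -7 and 4 in Lgals3. Of the other letters searched, the RUNX motif (TGTGGT, 16.8% of promoters) was found at -217, -145 and -79 of the S100a6 promoter, and the CACCC motif was in 57.5% of promoters. No motif was common to all 7 promoters, and these matches describe letters only.

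Library totals lay between 38085686 and 47908198 counts. Levels are given as CPM, counts scaled to a common library total with TMM factors, and differences as log2 values with the standard error (SE) of a fit of all 8 libraries. The summed markers of CD4 T and Treg cells lay at 2297 to 2873 CPM in all 8 libraries, and Foxp3 at 126 to 201 CPM. Foxp3 was lower in every GFP library than in every Thy1.1 library. It was at 126 and 141 CPM in tdTomato-positive and 146 and 166 CPM in tdTomato-negative GFP cells. In Thy1.1 cells it was at 186 and 187 CPM with the tdTomato label and 175 and 201 CPM without it. B cell markers summed to 8.19 to 22.4 CPM in GFP libraries and to 35.6 to 42.3 CPM in Thy1.1 libraries. Among them, Cd79b was at 3.68 to 14.4 CPM in GFP and 28.8 to 32.8 CPM in Thy1.1 libraries. Some markers of other cells were uneven between the libraries of GFP cells. Dendritic cell markers summed to 80.6 CPM in tdTomato-negative GFP library 3 and to 1.61 to 5.10 CPM elsewhere, with 36.8 CPM of Siglech and 34.0 CPM of H2-Aa in that library, while H2-Ab1 was at 0 throughout. Lyz2, a myeloid gene, reached 21.9 and 0 CPM in tdTomato-positive GFP libraries 3 and 4, and 20.4 and 3.01 CPM in tdTomato-negative GFP libraries 3 and 4. It stayed at 0.26 to 1.88 CPM in Thy1.1 libraries. Erythroid markers summed to 47.5 CPM in tdTomato-positive GFP library 3 and to at most 5.37 CPM elsewhere. The fitted reporter and label differences of the 9 genes that involve GFP cells are therefore also given below without GFP libraries numbered 3.

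S100a4, whose protein binds non-muscle myosin and is known for its link to cell motility, showed the widest range among the S100 genes. It lay at 112 and 82.7 CPM in tdTomato-positive GFP cells, 51.1 and 17.8 CPM in tdTomato-negative GFP cells, 10.4 and 10.8 CPM in the tdTomato-positive Thy1.1 cells, and 6.22 and 5.09 CPM in the tdTomato-negative Thy1.1 cells. The 4 populations did not overlap, the GFP cells were above the Thy1.1 cells, and within each reporter the tdTomato-positive cells were above the tdTomato-negative ones. Between reporters the difference was 3.19 ± 0.45 on the log2 scale in tdTomato-positive cells, a 9.14-fold higher level in GFP cells, and 2.61 ± 0.45 in the tdTomato-negative cells. The tdTomato label went with a difference of 1.49 ± 0.43 in GFP cells and 0.91 ± 0.43 in Thy1.1 cells. In bulk RNA of this kind, fewer expressing cells and less RNA per cell cannot be told apart.

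S100a6 encodes calcyclin, which binds the calcyclin-binding protein and annexins, and its gene lies next but one to S100a4. It measured 197 and 126 CPM in tdTomato-positive GFP cells, 74.3 and 33.3 CPM in tdTomato-negative GFP cells, 25.3 and 23.0 CPM in the tdTomato-positive Thy1.1 cells, and 11.4 and 13.5 CPM in the tdTomato-negative Thy1.1 cells. As for S100a4, no population overlapped its neighbour and the order was the same. The 2 genes were close in shape as well: their centred log2 profiles differed by a root mean square of 0.282 over the 8 libraries. The reporter difference was 2.74 ± 0.38 in the tdTomato-positive cells and 2.12 ± 0.37 in the tdTomato-negative cells, and the label difference was 1.58 ± 0.36 in GFP cells and 0.96 ± 0.36 in Thy1.1 cells.

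S100a10 and S100a11 are neighbours farther along the same chromosome. The S100a10 protein does not need calcium and joins a pair of annexin A2 molecules in a tetramer at the membrane. S100a10 was at 574 and 448 CPM in tdTomato-positive GFP cells, 294 and 206 CPM in tdTomato-negative GFP cells, 219 and 214 CPM in the tdTomato-positive Thy1.1 cells, and 159 and 172 CPM in the tdTomato-negative Thy1.1 cells. The tdTomato-positive GFP cells stood above all others, and the tdTomato-negative GFP cells overlapped the tdTomato-positive Thy1.1 cells. Its reporter difference was 1.24 ± 0.18 in the tdTomato-positive cells and 0.59 ± 0.18 in the tdTomato-negative cells, and its label difference was 1.03 ± 0.18 in GFP cells and 0.39 ± 0.18 in Thy1.1 cells. S100a11, whose protein binds annexin A1, was at 250 and 169 CPM in tdTomato-positive GFP cells, 94.2 and 45.6 CPM in tdTomato-negative GFP cells, 73.2 and 68.9 CPM in the tdTomato-positive Thy1.1 cells, and 37.2 and 39.8 CPM in the tdTomato-negative Thy1.1 cells. Here the means of tdTomato-negative GFP cells (69.9 CPM) and tdTomato-positive Thy1.1 cells (71.0 CPM) did not separate, because the tdTomato-negative GFP libraries lay on either side of both tdTomato-positive Thy1.1 libraries. The S100a11 label difference in GFP cells, 1.58 ± 0.32, was as large as its reporter difference in tdTomato-positive cells, 1.56 ± 0.32. Among tdTomato-negative cells the reporter difference was 0.86 ± 0.32, and among Thy1.1 cells the label difference was 0.88 ± 0.32.

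S100a13, known for its part in the stress-driven export of growth factor and cytokine without a signal peptide, varied least of the S100 genes. It measured 87.6 and 64.7 CPM in tdTomato-positive GFP cells, 57.2 and 42.0 CPM in tdTomato-negative GFP cells, 40.2 and 39.1 CPM in the tdTomato-positive Thy1.1 cells, and 39.3 and 35.9 CPM in the tdTomato-negative Thy1.1 cells. The Thy1.1 populations overlapped each other, and both GFP populations lay above them. The difference between reporters was 0.94 ± 0.20 in the tdTomato-positive cells and 0.40 ± 0.20 in the tdTomato-negative cells, and the label difference was 0.62 ± 0.20 in GFP cells and 0.08 ± 0.20 in Thy1.1 cells.

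**Figure D1:**
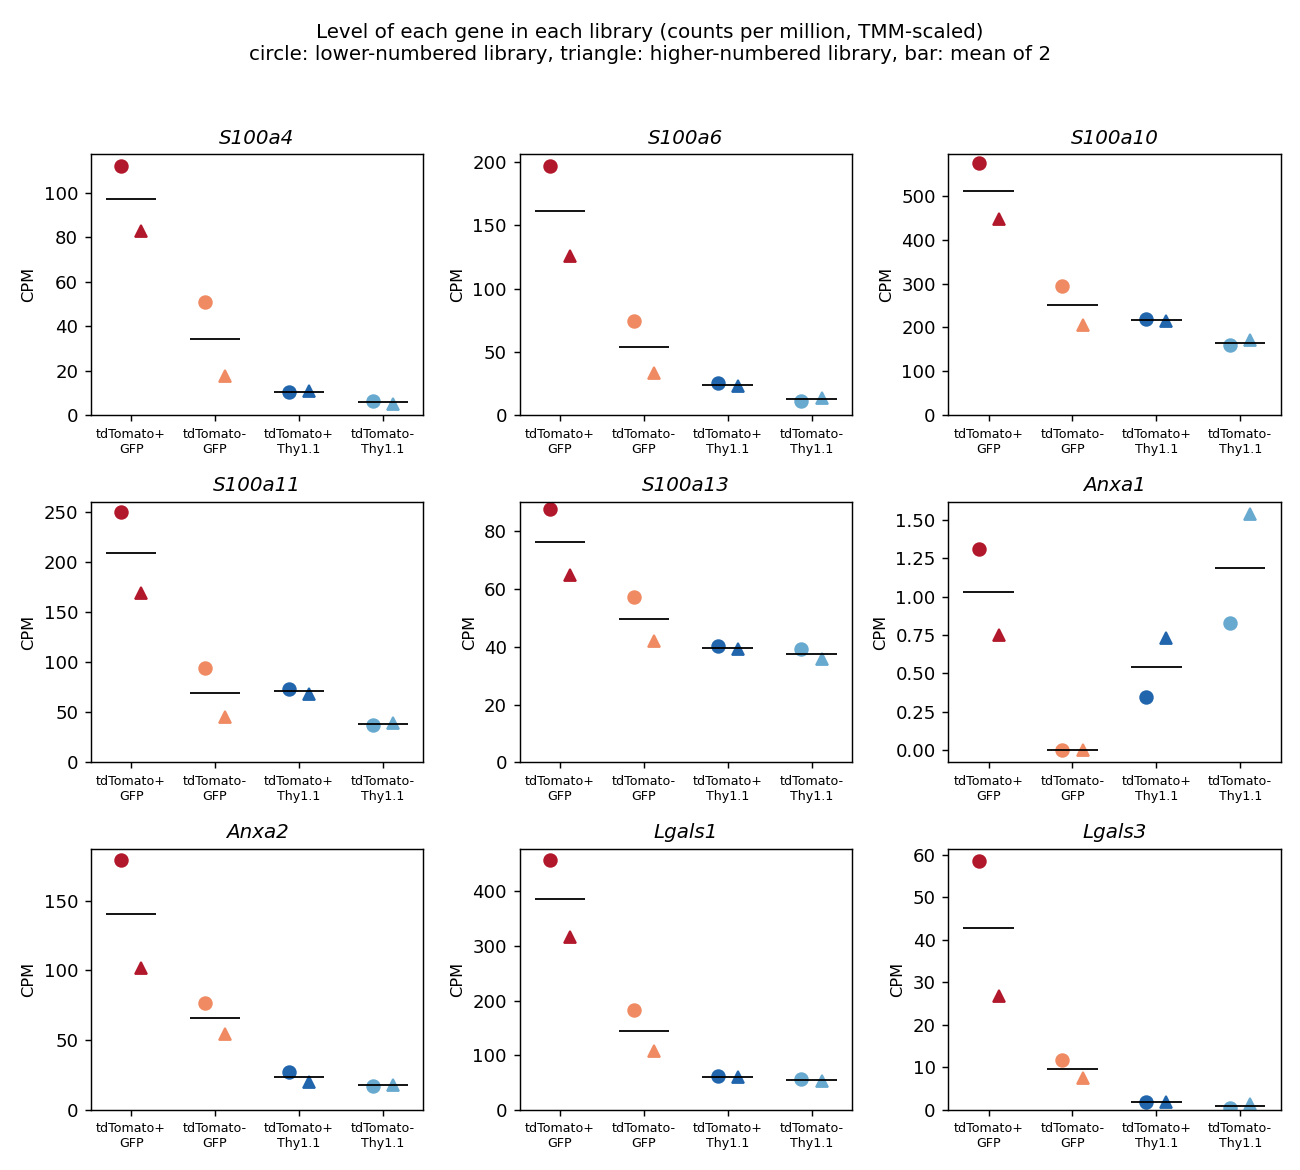
Level of each of the 9 genes in each library, in CPM on a linear axis, for the 4 populations (circle and triangle: the lower- and higher-numbered library; bar: mean of 2). In 8 genes the tdTomato-positive GFP cells are highest, with Lgals1 at 457 and 316 CPM there against 52.4 to 61.3 CPM in Thy1.1 libraries, while Anxa1 is at 0 in the tdTomato-negative GFP cells and below 2 CPM everywhere.

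Anxa2 encodes the annexin partner of S100A10, which also assembles plasminogen and its activator on cell surfaces. It was at 179 and 102 CPM in tdTomato-positive GFP cells, 76.6 and 54.5 CPM in tdTomato-negative GFP cells, 27.1 and 19.6 CPM in the tdTomato-positive Thy1.1 cells, and 17.4 and 18.0 CPM in the tdTomato-negative Thy1.1 cells. All 4 populations were separate and followed the order of S100a4 and S100a6. The reporter difference was 2.59 ± 0.30 in the tdTomato-positive cells, a 6.02-fold higher level in GFP cells, and 1.89 ± 0.30 in the tdTomato-negative cells. With the label, its level was 2.14-fold higher in GFP cells and 1.32-fold higher in Thy1.1 cells. Anxa2 and S100a10, partners in 1 complex, had the same order of population means, and their profiles differed by a root mean square of 0.673. That measure counts the width of a range as well as its shape. The highest population mean was 7.93-fold the lowest for Anxa2 and 3.08-fold for S100a10. Nearest to Anxa2 was Lgals1 at 0.236, and nearest to S100a10 was S100a13 at 0.232.

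Anxa1, a glucocorticoid-induced annexin whose product signals through formyl peptide receptors, was the exception in level and in order. Its counts were 58 and 28 in the tdTomato-positive GFP cells, 0 and 0 in the tdTomato-negative GFP cells, 17 and 32 in the tdTomato-positive Thy1.1 cells, and 39 and 66 in the tdTomato-negative Thy1.1 cells. These correspond to 1.31 and 0.752 CPM, 0 and 0 CPM, 0.348 and 0.731 CPM, and 0.826 and 1.54 CPM in the same order. Thus the tdTomato-negative GFP cells were lowest instead of second, and the tdTomato-negative Thy1.1 cells, lowest for 8 of the genes, had the highest mean and overlapped the tdTomato-positive GFP cells. Against a floor of 3 counts over both libraries of a population, Anxa1 was at least 32.2-fold higher in tdTomato-positive than in tdTomato-negative GFP cells, and at least 35.6-fold lower in tdTomato-negative GFP than in tdTomato-negative Thy1.1 cells. In tdTomato-positive cells its reporter difference was 0.93 ± 1.15, and its label difference in Thy1.1 cells was -1.13 ± 1.15, both no larger than their SE. The floor covers counting error only.

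Lgals1 encodes galectin-1, a secreted lectin known for limiting T cell responses and for its expression in Treg cells. It was at 457 and 316 CPM in tdTomato-positive GFP cells, 183 and 107 CPM in tdTomato-negative GFP cells, 61.3 and 60.1 CPM in the tdTomato-positive Thy1.1 cells, and 55.5 and 52.4 CPM in the tdTomato-negative Thy1.1 cells. The populations kept the common order without overlap, but the 2 Thy1.1 populations lay close together. Its reporter difference was 2.67 ± 0.27 in the tdTomato-positive cells and 1.43 ± 0.26 in the tdTomato-negative cells, and its label difference was 1.42 ± 0.26 in GFP cells and 0.17 ± 0.25 in Thy1.1 cells. The difference of those label differences, 1.24 ± 0.36, was the largest of the 8 genes for which one was computed.

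Lgals3 encodes galectin-3, a lectin that binds branched N-glycans and can form lattices on the T cell surface. After Anxa1 it had the lowest level per kilobase of exon, and it spanned the widest range: 58.5 and 26.9 CPM in tdTomato-positive GFP cells, 11.8 and 7.39 CPM in tdTomato-negative GFP cells, 1.94 and 1.85 CPM in the tdTomato-positive Thy1.1 cells, and 0.423 and 1.33 CPM in the tdTomato-negative Thy1.1 cells. The lowest library still held 20 counts and the highest 2594, and no populations overlapped. The reporter difference was 4.49 ± 0.61 in the tdTomato-positive cells, a 22.5-fold higher level in GFP cells, and 3.45 ± 0.60 in the tdTomato-negative cells. The label difference was 2.16 ± 0.55 in GFP cells and 1.12 ± 0.58 in Thy1.1 cells, where the tdTomato-negative libraries themselves stood 3.14-fold apart.

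**Figure D2:**
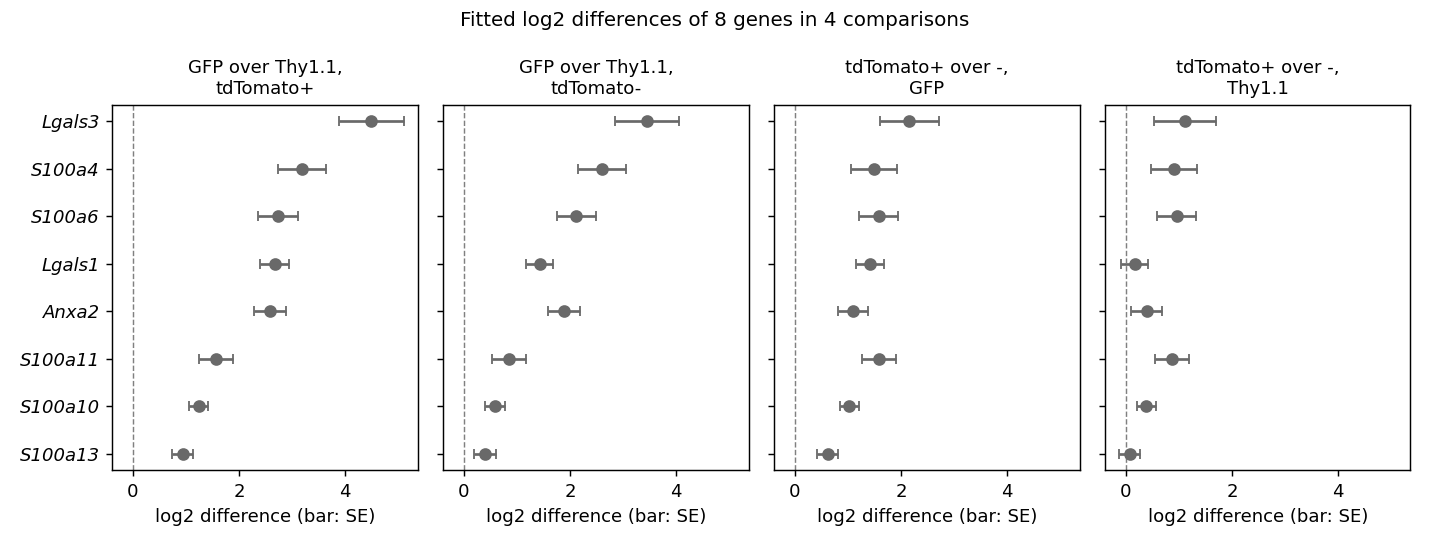
Fitted log2 differences (point) with their SE (bar) for 8 of the 9 genes, in 4 comparisons that share 1 axis; Anxa1 is left out because it was at 0 in the tdTomato-negative GFP cells. All points of the 2 GFP over Thy1.1 panels are above 0, from 0.94 to 4.49 in the tdTomato-positive cells and from 0.40 to 3.45 in the tdTomato-negative cells, and the label differences run from 0.62 to 2.16 within GFP cells and from 0.08 to 1.12 within Thy1.1 cells.

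The 9 genes differed in scale more than in order. The order tdTomato-positive GFP, tdTomato-negative GFP, tdTomato-positive Thy1.1, tdTomato-negative Thy1.1 held for the means of 7 of the 9, beside 11.4% of all genes tested, the exceptions being S100a11 and Anxa1. The ratio of the highest to the lowest population mean was 48.7 for Lgals3, 17.2 for S100a4, 7.93 for Anxa2, 7.16 for Lgals1, 5.44 for S100a11, 3.08 for S100a10 and 2.03 for S100a13, and for S100a6 the means were 161 and 12.4 CPM. The summed level of the 9 genes was 1915 and 1336 CPM in tdTomato-positive GFP cells, 842 and 513 CPM in tdTomato-negative GFP cells, 459 and 438 CPM in the tdTomato-positive Thy1.1 cells, and 327 and 340 CPM in the tdTomato-negative Thy1.1 cells. S100a10 made the largest share of that sum in every population.

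Per kilobase of exon, so that genes can be set against each other, the leading gene changed with the population. In tdTomato-positive GFP cells Lgals1 (428 CPM per kb), S100a10 (422 CPM per kb) and S100a11 (410 CPM per kb) were at like levels, above S100a4 at 166 CPM per kb. In tdTomato-negative GFP cells S100a10 led with 206 CPM per kb, against 160 CPM per kb for Lgals1 and 137 CPM per kb for S100a11. In tdTomato-positive Thy1.1 cells S100a10 stood at 179 CPM per kb, S100a11 at 139 CPM per kb and Lgals1 at 67.2 CPM per kb. In tdTomato-negative Thy1.1 cells S100a10 stood at 137 CPM per kb, and Lgals3, the lowest gene after Anxa1, at 0.472 CPM per kb. S100a13 held 106 CPM per kb in tdTomato-positive GFP cells and 52.5 CPM per kb in tdTomato-negative Thy1.1 cells, so it exceeded S100a4 in those Thy1.1 cells (9.69 CPM per kb) but not in those GFP cells.

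**Figure D3:**
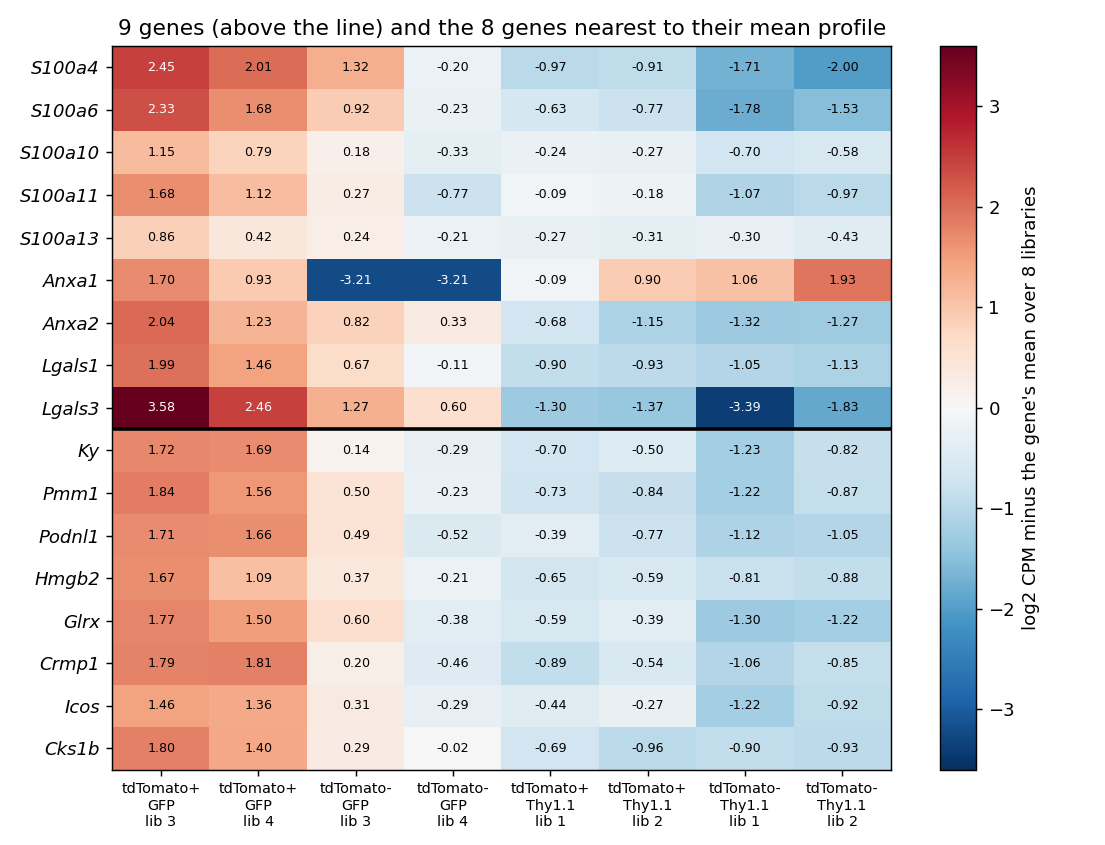
Centred log2 CPM of the 9 genes (above the line) and of the 8 genes nearest to their mean profile, with libraries in columns; each cell is the log2 CPM (prior count 2) minus the mean of that gene over 8 libraries. S100a4 runs from 2.45 down to -2.00 and S100a13 from 0.86 to -0.43, and Anxa1 is at -3.21 in both tdTomato-negative GFP libraries.

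In tdTomato-positive cells, GFP libraries were both above both Thy1.1 libraries for 9 of 9 genes, as for 29.5% of all genes tested. By edgeR's quasi-likelihood test at an adjusted p of 0.05, 8 of the 9 were called, all higher, beside 14.8% of all genes called, with 8.01% called higher and 6.82% called lower. The count fell to 4 without tdTomato-positive Thy1.1 library 1 and to 5 without its library 2. The median difference of the 9 genes was 2.59, against -0.01 for all genes tested. Scaled by library totals alone, 886 genes were called higher and 1120 lower, where TMM gave 1120 higher and 954 lower. Since this comparison was known when the genes were chosen, nothing is read from these counts.

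In tdTomato-negative cells, GFP libraries were both above both Thy1.1 libraries for 8 of 9 genes (21.4% of all genes), the exception being Anxa1, which was lower. The test called 0 of the 9, and only 23 genes in all (0.164%), of which 9 were higher and 14 lower. At an unadjusted p of 0.05, 1662 genes passed, and DESeq2 called 564 genes, 7 of the 9 among them, with 6 higher and 1 lower. The median difference was 1.43, against 0.00 for all genes. Every fitted difference of these genes was smaller without tdTomato-negative GFP library 3. Without it, S100a4 differed by 1.66, S100a6 by 1.42, Lgals1 by 0.98, S100a10 by 0.31, S100a11 by 0.24 and S100a13 by 0.16. Anxa2 then differed by 1.62, against 1.89 with it, and Lgals3 by 3.08, against 3.45.

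Within GFP cells, tdTomato-positive libraries were both above both tdTomato-negative ones for 9 of 9 genes (28.9% of all genes). The test called 7 of the 9, all higher, beside 12.6% of all genes called, with 6.24% called higher and 6.40% called lower, and the median difference was 1.49, against 0.03. Here too, and in the other comparisons, the genes were chosen with these values known, so nothing is read from the counts of called genes. That count was 0 without tdTomato-negative GFP library 4 or tdTomato-positive GFP library 3, 4 without either tdTomato-negative Thy1.1 library, 3 without either tdTomato-positive Thy1.1 library, and 0 in a fit of these 2 populations alone. Single libraries moved the differences widely. Without tdTomato-negative GFP library 4 and without its library 3, S100a4 differed by 0.89 and 2.45, S100a6 by 1.08 and 2.27, S100a11 by 1.11 and 2.20, Lgals1 by 1.04 and 1.86, and S100a10 by 0.76 and 1.31. Without tdTomato-positive GFP library 3 and without its library 4, Lgals3 differed by 1.45 and 2.61 and Anxa2 by 0.60 and 1.44. S100a13 differed by 0.34 without tdTomato-positive GFP library 3 and by 0.86 without tdTomato-negative GFP library 3. Without both GFP libraries numbered 3, the label difference in GFP cells was 2.21 for S100a4, 1.92 for S100a6, 1.12 for S100a10, 1.90 for S100a11, 0.63 for S100a13, 0.91 for Anxa2, 1.57 for Lgals1 and 1.87 for Lgals3, all still above 0.

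Within Thy1.1 cells, tdTomato-positive libraries were both above both tdTomato-negative ones for 7 of 9 genes (23.2% of all genes), S100a13 overlapping and Anxa1 being lower. EdgeR called 0 of the 9 and 0 of all 13989 genes here, while 1063 genes passed an unadjusted p of 0.05 and DESeq2 called 144. The median difference was 0.40, against 0.01. For all 8 genes with a fitted value, the label difference was larger in GFP than in Thy1.1 cells, by 0.54 to 1.24. However, the test of that difference called none of the 9 genes, beside 0.443% of all genes called. At an unadjusted p of 0.05, 1792 genes passed this test, and DESeq2 called 2 of the 9. For S100a4, that excess was -0.04 without tdTomato-negative GFP library 4 and 1.54 without library 3, and for Lgals3 it was -0.06 without tdTomato-negative Thy1.1 library 2.

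The libraries of GFP cells differed from each other for these genes more than those of Thy1.1 cells. Library 3 was the higher one for 9 of 9 genes in tdTomato-positive GFP cells (51.5% of all genes tested) and for 8 of the 8 detected in tdTomato-negative GFP cells (50.2%). The median ratio of the higher to the lower library was 1.48 and 1.65 in those populations, against 1.05 in the tdTomato-positive and 1.09 in the tdTomato-negative Thy1.1 cells. Over all genes tested, with 0.5 CPM added to both libraries, the median ratio was 1.21 and 1.20 in the GFP populations, and 1.13 and 1.14 in the Thy1.1 populations. That addition draws genes of low level towards a ratio of 1 and was not made for the 9 genes, so the 2 sets of ratios are not strictly alike. In tdTomato-negative GFP cells the ratio was 2.87 for S100a4, 2.23 for S100a6, 2.07 for S100a11 and 1.72 for Lgals1. The same 2 libraries numbered 3 held the most Lyz2, but the myeloid markers were mixed. Fcer1g and Tyrobp were also higher in library 3 than in library 4 of both GFP populations. Itgam was lower in library 3 of tdTomato-negative GFP cells (1.54 against 6.14 CPM). In tdTomato-positive GFP cells, Cst3 (129 against 134 CPM) and Adgre1 (0.0226 against 0.134 CPM) were lower in library 3. The 8 myeloid markers summed to 160 and 137 CPM in tdTomato-positive GFP cells, 130 and 86.4 CPM in tdTomato-negative GFP cells, 77.8 and 78.9 CPM in the tdTomato-positive Thy1.1 cells, and 62.6 and 66.0 CPM in the tdTomato-negative Thy1.1 cells. Cst3 made up most of that sum, and Csf1r had 0 counts in both tdTomato-positive GFP libraries. S100a8 and S100a9, abundant in neutrophils, had 7 and 42 counts in tdTomato-positive GFP library 3 and at most 1 count in any other library. The part of these other cells in the levels of the 9 genes was not tested. Without both libraries numbered 3, the tdTomato-positive reporter difference was 2.96 for S100a4, 2.38 for S100a6, 2.38 for Lgals1, 2.13 for Anxa2, 3.83 for Lgals3, 1.05 for S100a10, 1.26 for S100a11, 0.71 for S100a13 and 0.48 for Anxa1, with 1 library of GFP cells left on that side.

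Along chromosome 3, the expressed S100 genes lay among silent ones. S100a13, S100a4 and S100a6 reached 87.6, 112 and 197 CPM at most, while S100a14, S100a16, S100a2, S100a5, S100a7a, S100a8 and S100a9 in the same stretch did not pass the expression filter. S100a1, a member best known from heart muscle, was measured at 4.12 CPM on average in tdTomato-positive GFP cells, against 1.18 CPM in tdTomato-positive Thy1.1 cells (log2 difference 1.80 ± 0.83, edgeR adjusted p = 0.192). Exons of S100a4 overlap those of Gm42674 on the same strand, by 302 bases, and those of Anxa2 overlap Gm16144 on the opposite strand. The library kit does not mark strand, so part of the reads of these genes could belong to their neighbours.

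**Figure D4:**
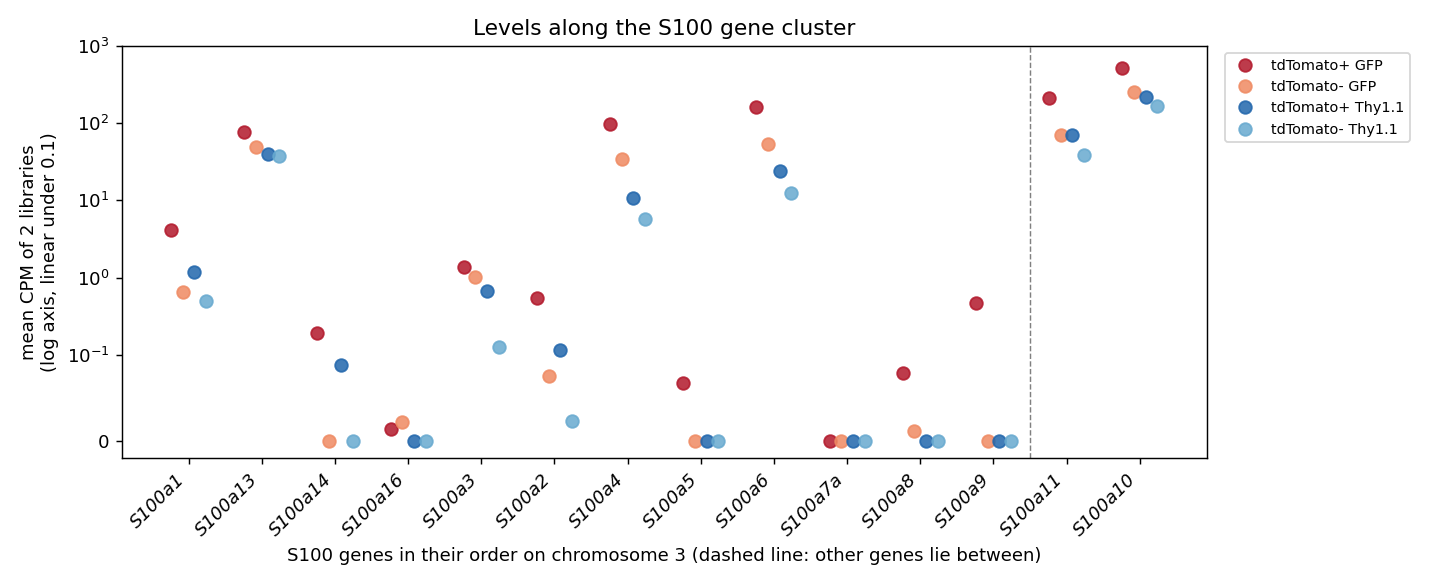
Mean CPM of 2 libraries for each S100 gene in its order on chromosome 3, on a log axis that is linear under 0.1, with the 4 populations side by side. S100a13, S100a4, S100a6, S100a11 and S100a10 stand at 5.66 CPM or more in every population, and every other S100 gene drawn stays under 5 CPM.

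Most other members of the 3 families did not pass the tests. Of 30 other S100, annexin and galectin genes listed, 29 were in the table and 16 passed the filter. Earlier results of these data were known when the list was made, so its counts of called genes are a description. In tdTomato-positive cells, edgeR called 4 of the 16 higher in GFP than in Thy1.1 cells and 0 lower, beside 8.01% of all genes called higher and 6.82% called lower, and their median difference was 0.56, against -0.01 for all genes. Within GFP cells, 4 of the 16 were higher with the tdTomato label and 0 lower, beside 6.24% of all genes called higher and 6.40% called lower, with a median of 0.40, against 0.03 for all genes. In tdTomato-negative cells, within Thy1.1 cells and in the test of the label differences, 0 were called, with medians of 0.23, 0.09 and 0.02. Both counts of 4 rested on single libraries. The reporter count was 0 without tdTomato-positive GFP library 3 or either tdTomato-positive Thy1.1 library, and 2 without either tdTomato-negative Thy1.1 library. The label count was 0 without tdTomato-negative GFP library 4, 2 without its library 3, and 1 without tdTomato-positive GFP library 3 or any Thy1.1 library.

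Among the annexins, Anxa4 was at 38.8 and 30.0 CPM in tdTomato-positive GFP cells, against 13.1 and 16.1 CPM in tdTomato-positive Thy1.1 cells (1.24 ± 0.26, adjusted p = 0.0187). It also rose with the label in GFP cells, with 18.1 and 17.0 CPM in tdTomato-negative GFP cells (0.97 ± 0.26, adjusted p = 0.0477). Anxa5, the annexin used as a probe for phosphatidylserine on dying cells, was at 168 and 140 CPM in tdTomato-positive GFP cells, against 109 and 91.5 CPM in tdTomato-positive Thy1.1 cells (0.62 ± 0.16, adjusted p = 0.0408). Its label difference in GFP cells was 0.64 ± 0.16 (edgeR adjusted p = 0.0425). Anxa6, a large annexin with a duplicated core and the most abundant annexin at 194 CPM per kb over all libraries, was at 787 and 655 CPM in tdTomato-positive GFP cells, against 523 and 467 CPM in tdTomato-positive Thy1.1 cells (0.54 ± 0.12, adjusted p = 0.0214). Anxa7, a vesicle-fusion annexin, was called only for the label in GFP cells, at 136 and 84.3 CPM in tdTomato-positive against 59.6 and 54.1 CPM in tdTomato-negative cells (0.95 ± 0.21, adjusted p = 0.0268). Anxa11 did not differ beyond its error in tdTomato-positive cells (0.04 ± 0.13, edgeR adjusted p = 0.857). Every annexin call named here was lost without at least 3 of the 8 libraries, taken out in turn, and exons of Anxa4 overlap those of Gm44036.

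Among the galectins, Lgals7, known from stratified epithelium, was at 10.2 and 6.45 CPM in tdTomato-positive GFP cells, against 1.94 and 1.19 CPM in tdTomato-positive Thy1.1 cells (2.41 ± 0.65, adjusted p = 0.0451). Lgalsl, the galectin-related gene, was at 18.6 and 18.5 CPM in tdTomato-positive GFP cells, against 6.47 and 5.13 CPM in tdTomato-negative GFP cells (1.68 ± 0.27, adjusted p = 0.00909). The Lgalsl reporter difference was 0.85 ± 0.26 in tdTomato-positive cells (edgeR adjusted p = 0.068). In tdTomato-negative cells it was -0.73 ± 0.26 (edgeR adjusted p = 0.338), lower in GFP cells, and neither was called. Lgals9, the galectin known as a ligand of TIM-3, was abundant at 135 CPM per kb over all libraries and did not pass the test in tdTomato-positive cells (-0.05 ± 0.18, edgeR adjusted p = 0.877). Lgals8, a galectin with a pair of sugar-binding domains (-0.39 ± 0.19, edgeR adjusted p = 0.227), and Lgals4, known from intestinal epithelium (-0.34 ± 0.29, edgeR adjusted p = 0.477), did not pass it either. Lgals6, a near copy of Lgals4, was not analysed here, and its reads may be counted with those of Lgals4. The call of Lgals7 was lost without 6 of the 8 libraries in turn, and that of Lgalsl only without tdTomato-negative GFP library 4.

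**Figure D5:**
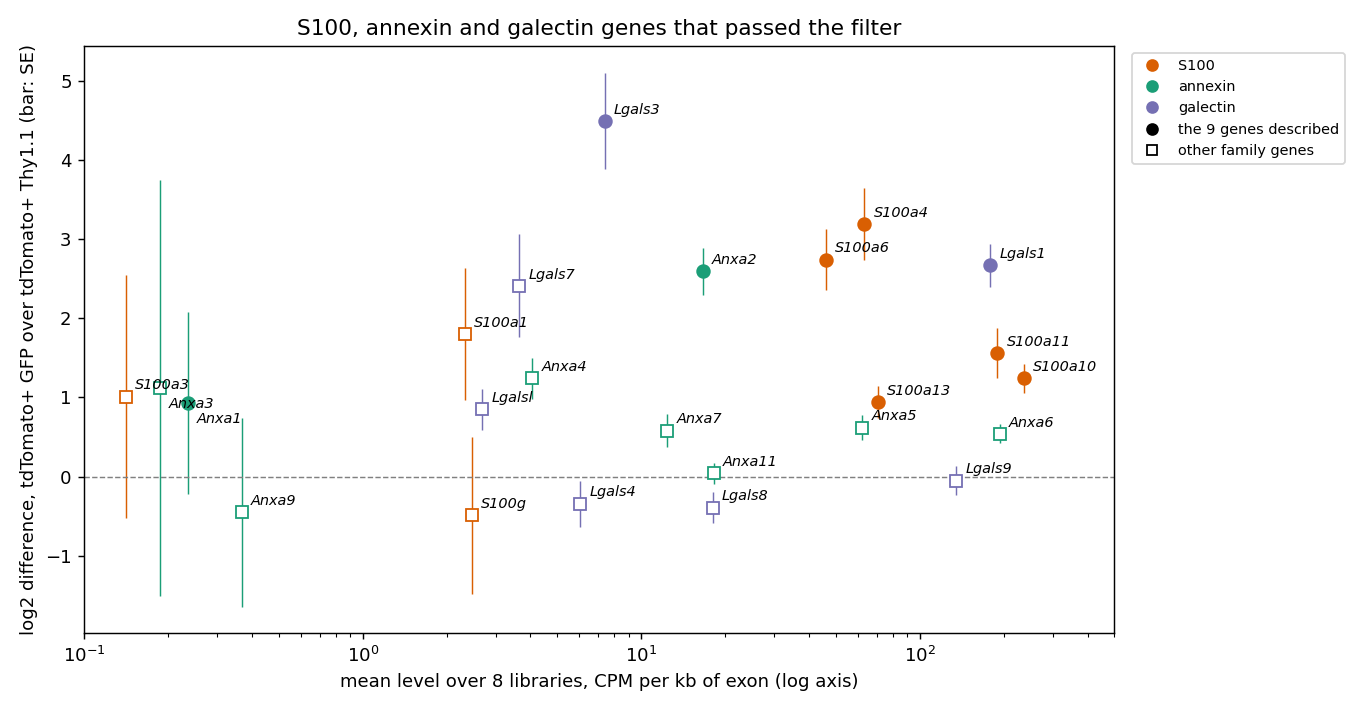
Reporter difference in tdTomato-positive cells (log2, GFP over Thy1.1, bar: SE) against the mean level over 8 libraries (CPM per kb of exon, log axis) for the S100, annexin and galectin genes that passed the filter. Filled circles are the 9 genes described and open squares the other family genes; Lgals3 stands highest at 4.49, while Lgals9 and Anxa6, at 135 and 194 CPM per kb, lie at -0.05 and 0.54.

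Genes whose products bind or decorate these proteins were examined next. Of 25 listed, 22 passed the filter. This list was chosen with earlier results of these data known, so its counts of called genes are a description. In tdTomato-positive cells, edgeR called 4 higher and 3 lower in GFP cells, beside 8.01% and 6.82% of all genes, with a median of -0.03, against -0.01 for all genes. Havcr2, the gene of TIM-3, a surface receptor for galectin-9, was at 23.0 and 21.3 CPM in tdTomato-positive GFP cells, against 3.89 and 3.95 CPM in tdTomato-positive Thy1.1 cells (2.50 ± 0.28, adjusted p = 0.00233). Lag3, whose product can bind galectin-3, rose by 2.55 ± 0.22 (edgeR adjusted p = 0.000886). Vim, the gene of the filament protein vimentin, was at 563 and 433 CPM in tdTomato-positive GFP cells, against 222 and 226 CPM in tdTomato-positive Thy1.1 cells (1.15 ± 0.15, adjusted p = 0.00308). Cd47, the gene of a surface protein that signals against engulfment, rose by 0.51 ± 0.10 (edgeR adjusted p = 0.0152).

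Mgat5, the enzyme that makes the branched N-glycans galectin-3 prefers, was lower, at 61.4 and 41.4 CPM in tdTomato-positive GFP cells, against 149 and 137 CPM in tdTomato-positive Thy1.1 cells (-1.48 ± 0.19, adjusted p = 0.00364). Cd7, a T cell glycoprotein that galectin-1 is known to bind in human cells, fell to 17.5 and 11.3 CPM in tdTomato-positive GFP cells, against 32.2 and 32.1 CPM in tdTomato-positive Thy1.1 cells (-1.16 ± 0.27, adjusted p = 0.026). Plaur, the urokinase receptor, had 0 counts in both tdTomato-positive GFP libraries, against 43 and 42 counts in tdTomato-positive Thy1.1 libraries, at least 24.9-fold lower (edgeR adjusted p = 0.0128). The calls of Havcr2, Lag3, Vim and Mgat5 held without each of the 8 libraries in turn, and those of Cd47 and Cd7 were lost without 2 and 3 of them.

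In tdTomato-negative cells 2 partners passed the test, both higher in GFP cells. Havcr2 was at 11.5 and 11.6 CPM in tdTomato-negative GFP cells, against 1.76 and 1.42 CPM in the tdTomato-negative Thy1.1 cells (2.86 ± 0.29, adjusted p = 0.0148), and Lag3 rose by 1.86 ± 0.22 (edgeR adjusted p = 0.0329). Each of these calls was lost without 5 of the 8 libraries in turn. With the tdTomato label within GFP cells, 3 of the 22 partners rose and 3 fell, beside 6.24% and 6.40% of all genes, with a median of -0.02, against 0.03 for all genes. Lag3 rose by 1.39 ± 0.21 (edgeR adjusted p = 0.00762), Vim by 0.62 ± 0.14 (adjusted p = 0.0311) and Cd44, the hyaluronan receptor, by 0.84 ± 0.21 (adjusted p = 0.0379). Cd7 was at 17.5 and 11.3 CPM in tdTomato-positive GFP cells, against 37.5 and 55.1 CPM in tdTomato-negative GFP cells (-1.68 ± 0.27, adjusted p = 0.00921), a call that held without each library in turn. Mgat5 fell by 0.94 on the log2 scale (SE 0.19, edgeR adjusted p = 0.0214), and Plaur was at least 68.5-fold lower (edgeR adjusted p = 0.0107). The calls of Lag3 and Mgat5 were lost only without tdTomato-negative GFP library 4, and those of Vim and Cd44 without 6 and 7 of the 8 libraries. Within Thy1.1 cells and in the test of the label differences, edgeR called 0 of the 22. Exons of Cd7 overlap those of Gm11775 and exons of Mgat5 those of Tmem163, so their levels are uncertain.

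Of 20 cytoskeleton and migration genes listed, 19 passed the filter. As the list was chosen with earlier results of these data known, its counts of called genes are a description. In tdTomato-positive cells edgeR called 8 of them higher and 1 lower in GFP cells, beside 8.01% and 6.82% of all genes, with a median of 0.37, against -0.01 for all genes. Capg, the gene of an actin-capping protein, was at 1282 and 1217 CPM in tdTomato-positive GFP cells, against 444 and 485 CPM in tdTomato-positive Thy1.1 cells (1.43 ± 0.14, adjusted p = 0.0017). Actg1, the gene of a cytoplasmic actin, rose by 0.75 ± 0.13 (edgeR adjusted p = 0.0103), and Itgb7, the beta chain of a gut-homing integrin, by 0.44 ± 0.06 (adjusted p = 0.00484). Crip1, the gene of a small LIM protein, rose by 0.91 ± 0.19 (edgeR adjusted p = 0.0198), and Plp2, the gene of a membrane proteolipid, by the same 0.91 ± 0.19 (adjusted p = 0.0181). Itga4, the alpha chain that pairs with the product of Itgb7, fell to 332 and 323 CPM in tdTomato-positive GFP cells, against 491 and 479 CPM in tdTomato-positive Thy1.1 cells (-0.57 ± 0.12, adjusted p = 0.0179).

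Within GFP cells 4 of the 19 rose with the tdTomato label and 0 fell, beside 6.24% and 6.40% of all genes, with a median of 0.27, against 0.03 for all genes. Capg was at 640 and 470 CPM in tdTomato-negative GFP cells, below the values above (1.17 ± 0.14, adjusted p = 0.0034). Tagln2, the gene of an actin-binding protein, was at 335 and 235 CPM in tdTomato-positive GFP cells, against 161 and 113 CPM in tdTomato-negative GFP cells (1.06 ± 0.22, adjusted p = 0.0222). Actg1 rose by 0.49 ± 0.13 (edgeR adjusted p = 0.0485) and Tmsb4x, which sequesters actin monomers, by 0.27 ± 0.07 (adjusted p = 0.0384). In the other comparisons edgeR called 0 of the 19, with medians of 0.11 in the tdTomato-negative cells and -0.05 within Thy1.1 cells. Both Capg calls held without each of the 8 libraries in turn, and the other calls named for this list were each lost without at least 2 of them. Exons of Plp2 overlap those of Prickle3, and exons of Itga4 those of Cerkl.

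The genes with a profile most like the mean of the 9 were taken from 9705 genes with a mean of at least 5 CPM, by the root mean square difference of centred log2 CPM over the 8 libraries, for which the median gene lay at 1.068. The nearest were Ky, a muscle peptidase gene, at 0.181, Pmm1, a phosphomannomutase gene, at 0.186, Podnl1 at 0.202 and Hmgb2, the gene of a chromatin protein of dividing cells, at 0.207. Glrx, the gene of a glutaredoxin, followed at 0.212, Crmp1 at 0.213, Icos at 0.226 and Cks1b, a cyclin-dependent kinase subunit, at 0.241. Icos, the gene of a costimulatory receptor, was at 1408 and 1320 CPM in tdTomato-positive GFP cells, 636 and 420 CPM in tdTomato-negative GFP cells, 379 and 425 CPM in the tdTomato-positive Thy1.1 cells, and 220 and 271 CPM in the tdTomato-negative Thy1.1 cells. Its population means thus fell in the order of S100a4, with an overlap of the tdTomato-negative GFP and tdTomato-positive Thy1.1 libraries. Choosing genes by likeness favours that order, so nothing is read from it. With a prior count of 0.5 in place of 2, 4 of these 8 genes stayed among the nearest 8. The mean profile includes Anxa1, at -3.21 in both tdTomato-negative GFP libraries, which lowers that mean there, to 0.28 and -0.46.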

How the data were processed

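PolyA RNA of the sorted cells underwent 12 cycles of SMART-Seq v4 amplification, 8 PCR cycles of library preparation and 50-nt paired-end sequencing, per the labels' protocols. The authors deposited raw counts per gene as whole numbers in 1 table, per the file headers. DESeq is named in the submitters' processing notes, whereas aligner, annotation and genome build were not given in the sources used here. Of its 24116 rows, 8 lacked a gene name (0.0215% to 0.0264% of a library) and were left out.

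Column numbers of Thy1.1 libraries (1 and 2) match their titles, but GFP columns are numbered 3 and 4 where titles have 1 and 2, so GFP columns were matched to their population only. The 9 genes and all gene lists were chosen with earlier results of these data known. Genes were filtered with edgeR 4.0.16 (minimum count 10), scaled by TMM, and fitted in 1 robust quasi-likelihood model of 8 libraries with a mean per population (R 4.3.3, limma 3.58.1, 4 residual degrees of freedom, common biological coefficient of variation 0.399). P-values were adjusted over 13989 genes by Benjamini-Hochberg with a threshold of 0.05, and the SE came from the F statistic. The steps were tested on simulated data. DESeq2 1.42.0, other scalings and filters, a block by library number and leaving out each library were alternatives. Exon lengths and overlaps came from a GENCODE mouse annotation that holds 23406 of 24108 gene names. A sum or a limit set by 0 counts covers counting error only.

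The text names all 9 genes, other family genes that were called or averaged at least 5 CPM, up to 6 called genes per comparison of the partner and migration lists by smallest adjusted p, the 8 genes nearest in profile, and markers that differ between libraries. S100a1 was named after its values were seen. Same-numbered libraries of a reporter did not deviate together (r = 0.056 for GFP and 0.0509 for Thy1.1, across genes).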

Additional observations from a re-analysis of the deposited data

Results flagged for a closer look

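Anxa1 moved in opposite directions in the populations. With the tdTomato label its mean level was 1.03 CPM higher in tdTomato-positive than in tdTomato-negative GFP cells, both libraries above both, and its mean differed by -0.644 CPM between tdTomato-positive and tdTomato-negative Thy1.1 cells, both libraries below both. Between reporters its mean was 0.491 CPM higher in GFP than in Thy1.1 cells among tdTomato-positive cells, and differed by -1.18 CPM among tdTomato-negative cells, again without overlap. On the log2 scale both come to the difference of label differences, for which edgeR's test called 0 of the 9 genes. The differences in CPM were not tested, and the counts behind them run from 0 to 66 per library.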

How the results depend on the processing

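No value changed direction where a call was made. Across all genes, DESeq2 called 3125 for reporter in tdTomato-positive cells, 564 in tdTomato-negative cells, 2965 for the label in GFP cells, 144 in Thy1.1 cells and 568 for the difference of label differences. In tdTomato-negative cells the count was 109 with a 1 CPM minimum, 98 with no filter and 1 in a fit of those 2 populations. A fit of the 2 populations gave 300 for the label in GFP cells and 2 in Thy1.1 cells. The difference of label differences gave 108 with a 1 CPM minimum and 109 with no filter. Without both GFP libraries numbered 3, an alternative chosen after seeing the data, it gave 210, and the label in Thy1.1 cells gave 2. Of the 9 genes, a 1 CPM minimum called 4, no filter 5 and DESeq2 7 for reporter in tdTomato-negative cells, beside 109, 98 and 564 of all genes. That minimum had to be met in all 8 libraries, so Anxa1 and Lgals3 were not tested under it. The 2-population fit called 0 of the 9 for the label in GFP cells. For the difference of label differences, DESeq2 called 2 of the 9, and leaving out both libraries 3 called 1. Of the other family genes, library totals called 2 and leaving out both libraries 3 called 0 for reporter in tdTomato-positive cells. For the label in GFP cells, DESeq2 called 7 of them, library totals 2, the 2-population fit 0 and leaving out both libraries 3 called 2. DESeq2 called 1 of them for reporter in tdTomato-negative cells and 1 for the difference of label differences. The replicate block (library number within reporter) gave 2039 genes, 8 of the 9 and 5 other family genes for the label in GFP cells, 0 genes in Thy1.1 cells, and 78 genes and 1 of the 9 for the difference of label differences. Leaving out each library in turn gave 481 to 2118 genes for reporter in tdTomato-positive cells, 0 to 75 in tdTomato-negative cells, 458 to 1801 for the label in GFP cells, 0 to 0 in Thy1.1 cells and 0 to 119 for the difference of label differences. For the 9 genes these ranges were 4 to 8, 0 to 3, 0 to 8, 0 to 0 and 0 to 0. For the other family genes they were 0 to 4, 0 to 0, 0 to 5, 0 to 0 and 0 to 0. By library totals, 9 of 9 genes kept their own order of the populations, so the common order still held for 7 of them. The cause of these moves was not tested, and 2 libraries a population limit every SE.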
